A study of Drosophila melanogaster and Drosophila mauritiana and Drosophila melanogaster x Drosophila mauritiana with 7 samples.

Results

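The small RNAs described here are those shorter than 23 nt that match the vasa-related (Varel) repeats, VRr, in testes of D. melanogaster. They were chosen by length alone, as the sequences of 22 nt or less in the table of small RNAs assigned to 26 VRr copies. They number 1472 of the 4192 distinct sequences in that table and hold 23239 of its 137899 reads, or 16.9% (16.7 to 17.1). Their lengths run from 15 to 22 nt. The table covers a small RNA library of y w males, strain Df(1)w67c23(2)y, made from dissected testes of adults aged 0 to 5 days. The study has 7 testis libraries, 1 per group. Small RNA was sequenced from y w, from P{}Hmr1, from wild-type D. mauritiana and from F1 hybrids of the latter pair. Ribo-depleted RNA was sequenced from all of these but y w. Only the y w library is used here. Whole testes hold germline and somatic cells together, and the table has no marker gene against which the tissue could be checked.

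Most small RNAs of repeats in the germline are piRNAs, which are bound by Piwi proteins and guide the silencing of transposons. In flies a piRNA usually starts with uridine, its 5′ end is fixed when it is loaded, and its 3′ end is made by cleavage and shortened by exonucleases such as Nibbler. A different class, the small interfering RNAs of Dicer-2, is 21 nt long and is cut from double-stranded RNA, so its strands pair with 2-nt overhangs at the 3′ ends. In the ping-pong cycle the 5′ ends of a pair of piRNAs on opposite strands overlap by 10 nt. The bases of RNA are written here as DNA, as the table gives them, so a first uridine reads T. In what follows, short means 22 nt or less and longer means 23 to 30 nt, and brackets after a share give its exact 95% interval.

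The 5 most abundant short sequences carried 10918 reads, or 47.0% (46.3 to 47.6) of all short reads, and came from 3 places where longer small RNAs start. They are printed below inside their most abundant longer form, because each is the beginning of it. Lower case marks the short sequence and capitals mark the bases that only the longer form has.
Start 1, short form of 20 nt: tgtttcatcgttagacggctCGG
Start 1, short form of 19 nt: tgtttcatcgttagacggcTCGG
Start 1, short form of 22 nt: tgtttcatcgttagacggctcgG
Start 2, short form of 22 nt: ttaatgccggaagcgatcccacT
Start 3, short form of 22 nt: taatgtcccttaaatcagcactCGTA

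Start 2 gave the most abundant short sequence, of 22 nt, with 4479 reads against 6781 reads of its form of 23 nt. These are also the most abundant sequences just inside and just outside the length limit, and they differ by a final T. Start 1 gave short forms of 20, 19 and 22 nt with 2135, 1864 and 1417 reads, against 5081 reads of the form of 23 nt. Start 3 gave a short form of 22 nt with 1023 reads, against 3515 reads of the form of 26 nt. In each case the longer form had more reads than the short one.

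These sequences match many copies of the repeat, and the table lists 1 place for each. On build dm6 the short form at start 2 was listed at chrX:21964868-21964889 on the plus strand and matched 23 copies. The short form of 20 nt at start 1 was listed at chrX:22060852-22060871 and matched all 26 copies, and that at start 3 was listed at chrX:22276094-22276115 and matched 5 copies. Listed places of the short sequences ran from 21819619 to 22371830 on chromosome X, and 0 of the 1472 lay inside a gene of the RefSeq table for this build. The nearest annotated genes around the listed place of start 1 were lncRNA:flam, the flamenco piRNA cluster, 270121 bases to the left, and CG40813, 82206 bases to the right. These distances hold for the listed copy only.

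Short reads were most frequent at 22 nt, next to the piRNA sizes, and 21 nt was no peak. Of the short reads, 10537 were 22 nt long, 4142 were 21 nt, 4466 were 20 nt and 2781 were 19 nt. Only 649 reads were 18 nt, 307 were 17 nt, 237 were 16 nt and 120 were 15 nt. The step between 19 and 18 nt coincides with the lower limit of the gel cut in the labels' protocol, 19 nt. The part of that limit in the step was not tested. Most of the step lay at the start with most short reads. That start held 1864 of the reads of 19 nt and 101 of those of 18 nt. Reads of 21 nt made up 17.8% (17.3 to 18.3) of short reads and 3.004% (2.91 to 3.10) of all VRr reads. Distinct sequences increased with each nt of length, with 190 sequences of 19 nt, 249 of 20 nt, 306 of 21 nt and 384 of 22 nt.

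The strand balance of short reads was close to that of the longer ones. The plus strand held 22720 short reads, or 97.8% (97.6 to 98.0), and the minus strand 519. Among longer reads the plus share was 98.0% (97.9 to 98.1), and these intervals overlap. The 21-nt class showed no gain of minus-strand reads, as 4040 of its reads were plus and 102 minus. Reads of 21 nt were 17.8% (17.3 to 18.3) of plus-strand short reads and 19.7% (16.3 to 23.3) of minus-strand short reads. With each distinct sequence counted once, 82.6% (80.6 to 84.5) of short and 83.3% (81.8 to 84.6) of longer sequences were plus.

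**Figure D1:**
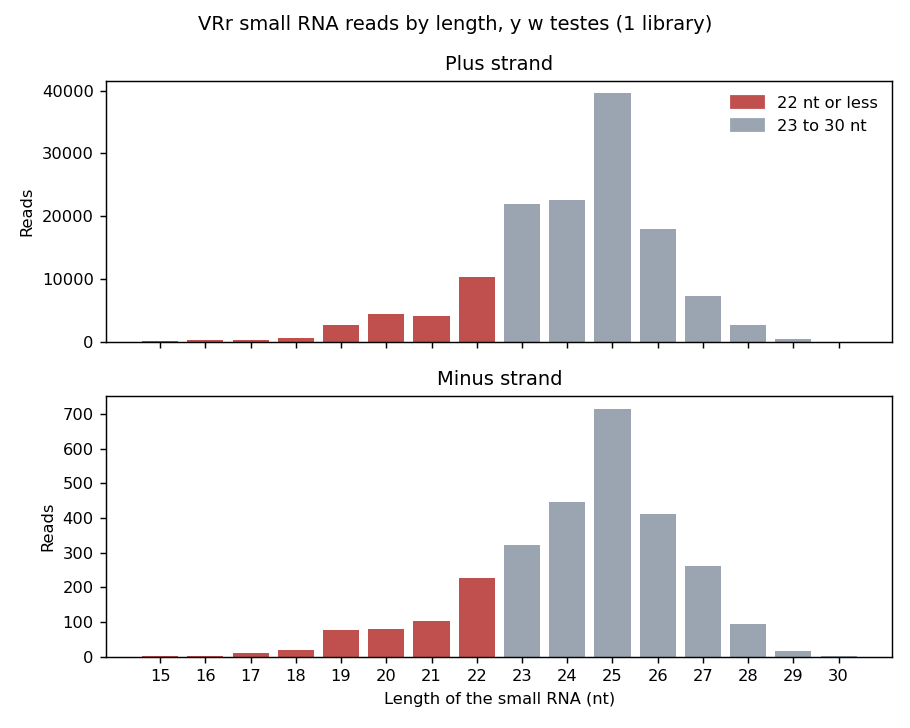
Reads of VRr small RNAs (y axis) by length in nt (x axis) on the plus strand (upper panel) and the minus strand (lower panel) in the 1 y w library, with 22 nt or less in red and 23 to 30 nt in grey. Both strands are highest at 25 nt and fall towards 15 nt, and neither has a peak at 21 nt.

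Counted by reads, the first base of short RNAs differed with their length. On the plus strand T came first in 84.9% (84.4 to 85.3) of short reads, a little below the 87.4% (87.3 to 87.6) of longer reads. The share was 86.5% (85.8 to 87.2) at 22 nt, 84.4% (83.2 to 85.5) at 21 nt, 91.1% (90.2 to 91.9) at 20 nt and 87.3% (86.0 to 88.5) at 19 nt. It fell to 53.8% (49.8 to 57.8) at 18 nt, 45.5% (39.7 to 51.3) at 17 nt, 35.0% (28.9 to 41.5) at 16 nt and 40.3% (31.4 to 49.7) at 15 nt. Reads of 19 to 22 nt thus had a first-base T share near that of longer reads, and those of 15 to 18 nt a much lower one. The value at 19 nt rested largely on the start with most short reads, which begins with T. That start held 1864 of the 2703 plus-strand reads of 19 nt and 101 of the 630 of 18 nt. Whether the break lies between 19 and 18 nt without that start was not tested. Over both strands C came first in 27.7% (25.3 to 30.2) of the 1313 reads of 15 to 18 nt, against 2.74% (2.53 to 2.97) at 19 to 22 nt. With each sequence counted once these contrasts between lengths were smaller, and their intervals overlapped. T then came first in 38.5% (33.3 to 43.9) of sequences of 15 to 18 nt and 42.8% (39.9 to 45.7) of those of 19 to 22 nt, and C in 25.4% (20.8 to 30.3) and 19.1% (16.9 to 21.5).

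The T bias came from abundant sequences. With each short sequence counted once, T came first in 41.8% (39.2 to 44.3), against 43.8% (42.0 to 45.7) of longer sequences. The other bases then held 22.2% for A, 20.6% for C and 15.4% for G. Minus-strand short reads lacked the bias even by reads, with T first in 28.7% (24.9 to 32.8) and G first in 31.2% (27.3 to 35.4). Longer minus-strand reads lacked it too, with T first in 26.5% (24.7 to 28.4) and G first in 30.5% (28.6 to 32.4).

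**Figure D2:**
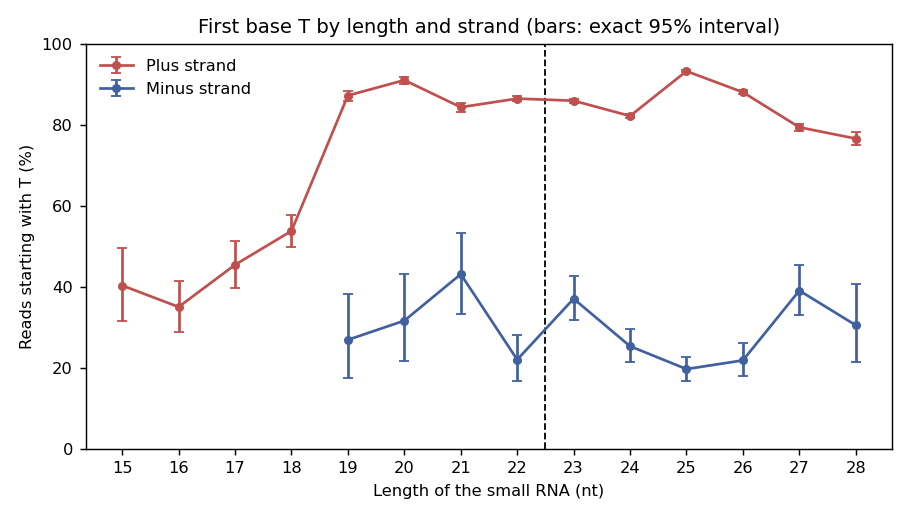
Share of reads that start with T (y axis, %) by length in nt (x axis) on the plus strand (15 to 28 nt) and on the minus strand (19 to 28 nt), with exact 95% intervals as bars and the limit of 22 nt as a dashed line. Plus-strand reads of 19 nt and more lie between 76.6% and 93.3%, while those of 15 to 18 nt lie between 35.0% and 53.8%.

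Nearly all short reads began where a longer small RNA began. A short sequence was said to share its start when it was identical to the first bases of a sequence of 23 to 30 nt. This held for 1311 of the 1472 sequences and for 22972 reads, or 98.9% (98.71 to 98.98). A further 109 sequences with 210 reads matched only the end of a longer sequence, 27 with 30 reads lay inside one, and 25 with 27 reads matched none. The median short sequence with a shared start had 12.4 longer reads at that start for each read of its own. Short reads outnumbered all longer ones at the same start for 59 of the 1311 sequences, which held 903 reads.

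A shared start alone separated little in so densely covered a repeat. Of short reads, 98.4% (98.2 to 98.5) were also identical to the end of some longer sequence, and 98.5% (98.3 to 98.6) to a stretch that begins 1 nt inside one. The comparison was therefore made by abundance, with measures added after these values were seen. For each short sequence, the longer reads with the same start were set against those with the same end. Longer reads with the same start prevailed for 18619 short reads, or 80.1% (79.6 to 80.6), and those with the same end for 4532 reads, or 19.5% (18.99 to 20.02). Counted by sequences, the order was the other way round, with 603 sequences for the start and 796 for the end. T came first in 92.4% (92.1 to 92.8) of short reads assigned to the start and in 48.4% (47.0 to 49.9) of those assigned to the end. This contrast is not independent of the assignment, which favours starts with many longer reads. A short read has the first base of the longer reads at its start, and 86.2% of longer reads began with T.

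By place, the 5′ ends of short reads sat on the main 5′ ends of longer reads, and their 3′ ends lay just before the main 3′ ends. Within 10 nt on either side, the most used 5′ end of longer reads was at the very position of the short read's own 5′ end for 16818 reads, or 72.4% (71.8 to 72.9). For a further 3623 reads, or 15.6% (15.1 to 16.1), the short read began 1 to 4 nt after it. The most used 3′ end of longer reads coincided with the short one for 7.72% (7.38 to 8.07) of reads and lay 1 to 6 nt further on for 82.5% (82.0 to 83.0). These shares too rested on abundant sequences, since 179 of the 1472 distinct sequences, or 12.2% (10.5 to 13.9), began at the most used 5′ end.

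Counted by reads, RNAs of 15 to 18 nt were placed differently, and counted by sequences the gaps were smaller. Their 5′ end coincided with the most used one in 15.2% (13.3 to 17.3), against 75.8% (75.2 to 76.4) at 19 to 22 nt. No 5′ end of longer reads lay within 10 nt for 6.78% of reads of 15 to 18 nt, against 0.187% at 19 to 22 nt. Most used ends were sought around the listed place, which can lie in another copy than that of the longer form. A sequence of 15 nt with 24 reads was listed at 22137758, and the longer form it ends at 22275934. The part of such listing in the contrast was not tested. For 507 of the 1313 reads, or 38.6% (36.0 to 41.3), the short read began 7 to 10 nt after the most used 5′ end, against 2.08% (1.89 to 2.27) at 19 to 22 nt. Longer reads with the same end prevailed for 65.7% (63.0 to 68.2) of them, against 16.7% (16.2 to 17.2) at 19 to 22 nt. The share rose with shortness, from 43.9% at 18 nt to 80.8% at 17 nt, 91.6% at 16 nt and 93.3% at 15 nt. With each sequence counted once, 8.45% (5.74 to 11.9) of sequences of 15 to 18 nt and 13.3% (11.4 to 15.4) of those of 19 to 22 nt began at the most used 5′ end, with overlapping intervals. Starts 7 to 10 nt after it held 33.8% (28.8 to 39.1) and 16.3% (14.2 to 18.6) of sequences. Longer reads with the same end prevailed for 68.8% (63.6 to 73.7) and 49.6% (46.6 to 52.6), a smaller gap than by reads.

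**Figure D3:**
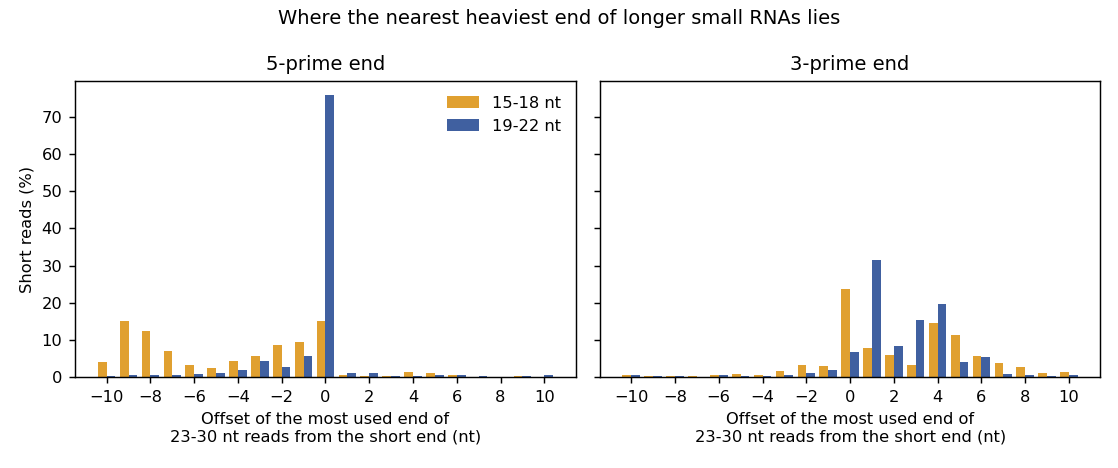
Offset in nt (x axis) of the most used 5′ end (left) or 3′ end (right) of longer reads, relative to the end of the short read, as a share of short reads (y axis, %) for 15 to 18 nt and 19 to 22 nt. Reads of 19 to 22 nt pile up at offset 0 on the left (75.8%) and at 1 to 6 on the right, while those of 15 to 18 nt have a second mass at -10 to -7 on the left (38.6%) and are highest at 0 on the right (23.7%).

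The most abundant reads of 15 to 18 nt that were assigned to an end are printed below as the capitals within the abundant longer sequence whose last bases they are. They were chosen after these values were seen.
Start 3, last 18 bases: taatgtccCTTAAATCAGCACTCGTA
Start 3, last 17 bases: taatgtcccTTAAATCAGCACTCGTA
Start 5, last 16 bases: tatagcacaCTTTTGTATCGGCGTC
The last 18 bases of the sequence of 26 nt at start 3 had 47 reads, with 3685 longer reads that share their end and 7 that share their beginning. The last 17 bases had 42 reads, with 33 longer reads that share their beginning. The last 16 bases of the sequence of 25 nt at start 5, which itself had 8413 reads, were found in 39 reads, with 9296 longer reads that share their end and 6 that share their beginning.

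Sequences with no shared start were rare, and most of them were ends of longer sequences. Those that matched only an end comprised 31 sequences of 15 to 18 nt and 78 of 19 to 22 nt. The most abundant sequence with no shared start was of 15 nt with 24 reads and consists of the last 15 bases of a sequence of 25 nt with 3613 reads. The next had 7 reads, and 4 had 6 reads each. The leading 3 are shown in capitals within the longer sequences they end, as follows.
No shared start, 15 nt: tgattaaagcCTTCGCGTCTTCCAC
No shared start, 18 nt: tgtttCATCGTTAGACGGCTCGG
No shared start, 19 nt: tgtttCATCGTTAGACGGCTCGGG
The first of these begins right after base 10 of the longer sequence, and the other two right after base 5 of the forms at start 1. On the plus strand 99.4% (99.3 to 99.5) of short reads shared a start, and on the minus strand 74.6% (70.6 to 78.3). Of the 27 reads that matched no longer sequence, 26 were from the minus strand. The minus strand also had fewer longer sequences to match, 455 with 2268 reads against 2264 with 112391 reads on the plus strand. The part of this lower coverage in the strand differences was not tested.

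Each abundant start had its own ladder of lengths. Start 1 had 6520 short and 13687 longer reads, a short share of 32.3% (31.6 to 32.9), with 1864 reads at 19 nt, 2135 at 20 nt, 998 at 21 nt and 1417 at 22 nt. Among its longer reads 5081 were of 23 nt, 3965 of 24 nt and 4493 of 25 nt, so the ladder had peaks at 20, 23 and 25 nt. Start 2 had 4856 short reads, a short share of 21.2% (20.7 to 21.8), nearly all of them at 22 nt, with 185 reads at 21 nt and 118 at 20 nt. Longer reads listed at start 2 numbered 18013, while 19594 longer reads began with its form of 22 nt, wherever listed. Short shares of starts rest on listed places and do not count longer forms listed at another copy. Start 3 had 1480 short reads, a short share of 11.7% (11.1 to 12.3), with 393 reads at 21 nt and 1023 at 22 nt.

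Starts 4 and 6 had a peak at 20 nt that stood apart from their longer reads. Start 4 had 782 reads at 20 nt, 90 at 21 nt and 25 at 22 nt, before its longer reads rose to 1814 at 25 nt. Start 6 had 350 reads at 20 nt, 100 at 21 nt and 91 at 22 nt, and 1350 at 24 nt. Start 5 held the most abundant VRr sequence, of 25 nt, and had a short share of 6.15% (5.74 to 6.58), with 480 reads at 21 nt and 257 at 22 nt. The 6 starts thus differed in their most frequent short length, which was 20 nt at starts 1, 4 and 6, 22 nt at starts 2 and 3, and 21 nt at start 5.

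**Figure D4:**
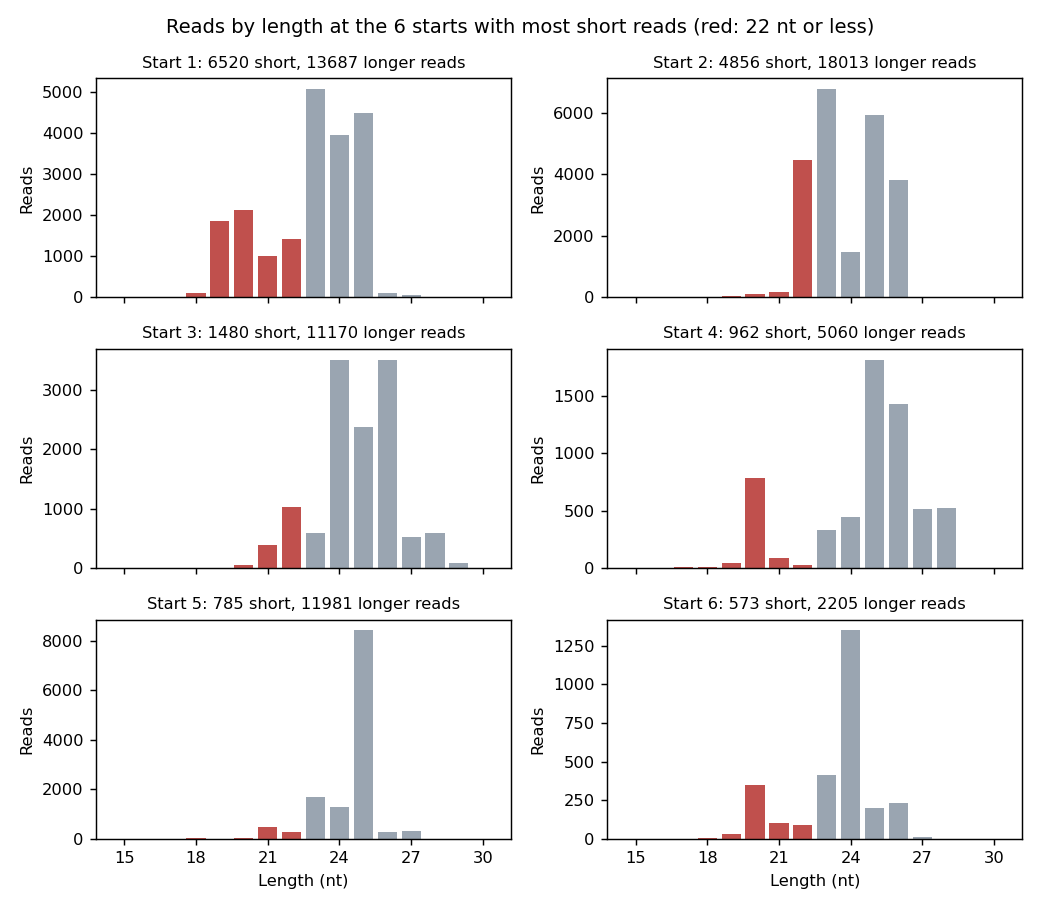
Reads (y axis) by length in nt (x axis) at the 6 places of 5′ ends with most short reads, with 22 nt or less in red and longer reads in grey. Starts 1, 4 and 6 have a short peak at 20 nt, starts 2 and 3 at 22 nt and start 5 at 21 nt, and in every panel the tallest bar is of 23 nt or more.

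Short reads were concentrated on few starts, and minor starts next to major ones had the highest short shares. Starts 1 and 2 together held 49.0% (48.3 to 49.6) of short reads, and the 10 starts with most short reads held 71.8% (71.2 to 72.4) of them. Of these 10 starts, 9 began with T and 8 were the most used 5′ end of longer reads within 10 nt. Among the 119 starts with at least 100 reads, the short share had a median of 6.65%, a lower quartile of 2.23% and an upper quartile of 17.4%. The median was 4.71% at the 39 starts that were the most used within 10 nt, with a highest value of 41.1%. It was 8.28% at the 80 other starts, where 6 had a short share above 50%.

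The highest short shares lay just downstream of abundant starts. The start with the highest share, at base 9 of start 3, had 108 short and 2 longer reads, or 98.2% (93.6 to 99.8). The start at base 4 of start 1 had 136 short and 13 longer reads, or 91.3% (85.5 to 95.3). That at base 2 of start 1 had 478 short and 364 longer reads, or 56.8% (53.3 to 60.1). Of the 10 starts with the highest share, 8 lay 1 to 3 nt after a more used one. These starts share reads of the same places and are not replicates.

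The 21-nt class was examined for the pairing of Dicer products. Its most abundant members were the forms of 21 nt at starts 1, 5 and 3, with 998, 480 and 393 reads. Capitals mark the bases that only the most abundant longer form has.
Start 1, 21 nt: tgtttcatcgttagacggctcGG
Start 5, 21 nt: tatagcacacttttgtatcggCGTC
Start 3, 21 nt: taatgtcccttaaatcagcacTCGTA
All of them are the beginning of an abundant longer RNA. In the whole class 4086 of 4142 reads shared a start with a longer sequence. Of the class, 61.9% began at the most used 5′ end within 10 nt, against 77.8% at 22 nt and 82.3% at 20 nt. The plus strand held 4040 of these reads and set the pooled shares. On the minus strand 59 of 102 reads of 21 nt shared a start. The counts there were 193 of 227 at 22 nt, 66 of 79 at 20 nt and 52 of 78 at 19 nt. T came first in 44 of the 102 reads, against 50 of 227, 25 of 79 and 21 of 78 at these lengths. The cause of these differences was not tested.

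Pairs of 21-nt sequences with 2-nt overhangs, whose 5′ ends overlap by 19 nt, did not stand out from pairs that overlap by 17, 18 or 20 nt. By sequence identity, 8 of the 60 minus-strand sequences of 21 nt had such a partner on the plus strand. The number was 9 for an overlap of 18 nt, 8 for 17 nt and 10 for 20 nt. They held 11 of 102 reads at 19 nt, 10 at 18 nt and 16 at 20 nt. By listed places there were 8 pairs at 19 nt, 7 at 17 nt, 9 at 18 nt and 9 at 20 nt. The pair with the highest product of reads had 14 reads on the plus strand and 1 on the minus strand, and no pair had 10 reads on both strands. It is shown with the 19 paired bases in capitals.
21-nt pair, plus strand: TCCTCTGGACGTCTTCGACga
21-nt pair, minus strand: GTCGAAGACGTCCAGAGGAgg
The plus member was listed at chrX:21964947-21964967 and the minus member at chrX:21964945-21964965. The plus member shares its start with 2181 longer reads.

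Minus-strand short reads were few and had A at base 10 more often than plus-strand ones, the base that pairs with a first T in a ping-pong pair. They comprised 256 sequences with 519 reads, of which 227 reads were of 22 nt, 102 of 21 nt, 79 of 20 nt and 78 of 19 nt. A stood at base 10 in 55.9% (51.5 to 60.2) of their reads, against 7.96% (7.61 to 8.32) on the plus strand. With each sequence counted once, the shares were 40.6% (34.6 to 46.9) on the minus and 21.8% (19.5 to 24.2) on the plus strand. At 22 nt the minus share was 71.8%, close to the 68.7% (66.7 to 70.6) of longer minus-strand reads, and at 21 nt it was 34.3%. The share was 67.2% (62.3 to 71.8) among minus reads that shared a start with a longer sequence and 17.2% (9.98 to 26.8) among those that shared only an end.

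The 3 most abundant minus-strand short sequences had 47, 33 and 17 reads, and 4 in all had more than 10. They too were beginnings of longer forms, with 135, 172 and 135 longer reads at the same starts. Capitals mark the bases of the longer form only.
Minus strand, 22 nt, 47 reads: gctttaatcacgagcaatgcggT
Minus strand, 22 nt, 33 reads: ccggcattaatttctttaattaTGA
Minus strand, 20 nt, 17 reads: gccattagaacttgcaacatTGAAAT
They were listed at chrX:21819631-21819652, chrX:21964856-21964877 and chrX:22032111-22032130 and matched 13, 14 and 17 copies.

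The first 10 bases of short minus-strand sequences could be complementary to those of the abundant plus-strand starts. The 2 pairs below are the most abundant of the 2 leading sets, with the 10 complementary bases in capitals.
Start 2, plus strand: TTAATGCCGGaagcgatcccac
Start 2, minus partner: CCGGCATTAAtttctttaatta
Start 1, plus strand: TGTTTCATCGttagacggct
Start 1, minus partner: CGATGAAACAaagatctttagc
The minus partner of start 2 had 33 reads and that of start 1 had 5. The start 2 pair also overlaps at its listed places. The minus partner of start 1 was listed elsewhere, at chrX:21964891-21964912, so that pair was matched by sequence only. Summed over all pairs of short minus and short plus sequences, the product of reads was 369148 for an overlap of 10 nt, 54116 for 9 nt and 4458 for 11 nt. Pairs at starts 2 and 1 made up 84.8% of the sum at 10 nt. With sequences counted once there was no peak, as 158 of the 256 minus sequences had a short plus partner at 10 nt, 165 at 9 nt and 137 at 11 nt. By listed places, pairs of short sequences numbered 198 at 10 nt, 157 at 9 nt and 172 at 11 nt, and up to 206 at 20 nt. Against longer plus-strand sequences the product was 1747579 at 10 nt, 186263 at 9 nt and 26807 at 11 nt.

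**Figure D5:**
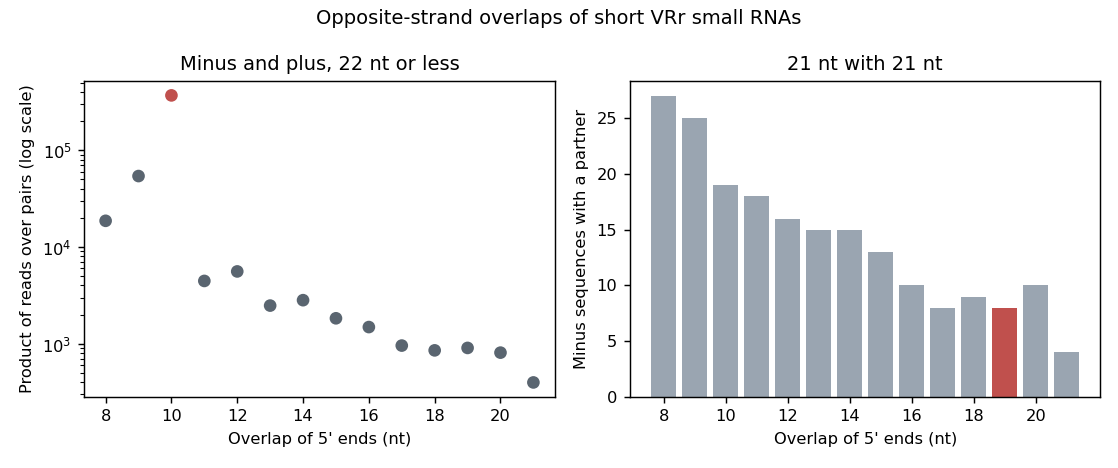
Opposite-strand pairs by overlap of their 5′ ends in nt (x axis): left, the product of reads summed over pairs of short sequences (log scale), right, the number of minus-strand 21-nt sequences (of 60) with a plus-strand partner of 21 nt. The overlap of 10 nt (red) stands out on the left with 369148, while that of 19 nt (red) on the right, with 8, lies below those of 18 and 20 nt, with 9 and 10.

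Short reads matched more copies of the repeat than longer reads did. The median short read matched 23 copies and the median longer read 12. All 26 copies were matched by 31.5% (30.9 to 32.1) of short and 12.3% (12.1 to 12.5) of longer reads. Start 1, which lies in all copies, carried 28.1% (27.5 to 28.6) of short and 11.9% (11.8 to 12.1) of longer reads. Without it, all copies were matched by 4.73% (4.41 to 5.06) of short and 0.393% (0.356 to 0.434) of longer reads, and the medians were 18 and 6 copies.

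A short sequence that begins a longer one must match at least the copies that the longer one matches, and the part of length in the difference was not tested. Of the 1311 short sequences with a shared start, 273 matched more copies than their most abundant longer form, and they held 5.37% (5.08 to 5.67) of the reads. The copies with most short reads were VRr19 with 22297, and VRr18 and VRr20 with 22166 each, or 95.9%, 95.4% and 95.4% of short reads. These reads are shared between copies and cannot be added. Reads that match only copies among VRr18 to VRr26 made up 23.9% (23.3 to 24.4) of short reads and 46.0% (45.7 to 46.3) of longer ones. Reads that match a single copy were 32, or 0.138% (0.0942 to 0.194), against 1.89% (1.81 to 1.97) of longer reads.

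The only VRr sequences that the table also counts under vasa were short. There were 3 of them with 7 reads in all, or 0.0301% (0.0121 to 0.0621) of short reads. All were minus-strand sequences that overlap each other, listed between 22275950 and 22275969 on chromosome X. They had 3, 2 and 2 reads and matched 22 VRr copies each, with 23 genomic places listed. The longest of them, of 20 nt, contains the other two and is printed here as the sequence common to VRr and vasa in the table.
Under vasa, 20 nt: tgatgaacgtcgtggaagac
Among longer sequences 0 of 2719 were counted under vasa, which by a limit of 3 counts allows a share of up to 0.110% of sequences. Longer reads with the same beginnings numbered 26 for the sequence printed and 19 for that with 3 reads, so the same 5′ ends occur in longer RNAs that the table does not count under vasa.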

How the data were processed

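The values used were read counts per distinct sequence in the y w small RNA library, as deposited by the authors and not scaled to library size. The authors' table repeats the count of a sequence under each VRr copy, and under vasa, that it matches. These columns were used only to tell which copies a sequence matches. Sequence length, number of genomic places and 1 listed place per sequence were also taken from the deposited table. RNA of 19 to 29 nt was cut from gels, per the labels' protocols, and the library title gives 18 nt as the lower limit. Cutadapt 1.8.1, Bowtie 1.2.2, Bowtie 0.12.7 and build dm6 are named in the submitters' processing notes; the sources used here give no mismatch setting, length filter or origin of the copies. The last line of the table, with column totals, was left out, and 67 further columns of per-sample values were not used.

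The VRr reads number 137899; the depth of the whole library is unknown, so levels per library were not computed. Shares have exact Clopper-Pearson intervals at 95%, computed with scipy 1.17.1 in Python 3.11.15. The sources name no molecular identifiers, so reads cannot be taken as independent molecules, and intervals and limits cover counting error only. With 1 library there is no replicate check, no test and no p-value. Overlapping intervals do not show that shares are equal.

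Shared starts, ends and 5′ overlaps were found by sequence identity, and most used ends by listed places within 10 nt. A start is a listed 5′ position and strand, and starts are numbered by short reads. For 74 short sequences with a shared start, no longer sequence was listed at the same place. Genes came from the RefSeq table of Release 6 (dm6). Named sequences were the 5 most abundant short ones, the 3 most abundant each on the minus strand, of 21 nt and without a shared start, those of 22 and 23 nt at the limit, the leading 21-nt pair, and the 3 copies with most short reads. The members and rules were chosen with earlier results of these data known; most used ends, the balance of start and end, and pairs by sequence identity were added after seeing the values. The balance of start and end, the most used ends and the interval were tested on simulated data. These data held a single-copy sequence on the plus strand, so they could not show errors from several copies. Overlaps, copies matched and short shares of starts were not simulated.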

Additional observations from a re-analysis of the deposited data

How the results depend on the processing

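Over 7 shares and 45 alternatives, 9 values stayed within the interval of the reported share and 36 did not. With each sequence counted once, the short share of VRr reads was 35.1%, the plus-strand share 82.6%, the 21-nt share 20.8%, T first 41.8%, shared starts 89.1%, starts at the most used 5′ end 12.2% and starts that outweigh ends 41.0%. Without sequences of 1 read these were 16.6%, 98.5%, within the interval, 85.1%, 98.7%, 74.2% and 81.2%. Without the most abundant short sequence they were 14.1%, 97.2%, 22.1%, 79.7%, 98.6%, 65.8% and 75.4%. Without start 1, an alternative chosen after seeing the data, they were 14.2%, 96.9%, 18.8%, 77.2%, 98.4%, 64.5% and 73.7%. With a limit of 20 nt the short share was 6.21%, T first 81.9%, shared starts 98.2%, starts at the most used 5′ end 70.8% and starts that outweigh ends 76.3%. Shared starts were 98.1% by listed place, 92.8% with partners of at least 10 reads and 97.4% with partners of 25 to 30 nt. Starts at the most used 5′ end within 5 nt were 73.4%. Leaving out the sequences counted under vasa kept all 7 shares within their intervals, which gave 7 of the 9 values that stayed. These sequences held only 7 of the 23239 short reads, so leaving them out could not have moved a share beyond its interval. The causes of these differences were not tested beyond what each alternative leaves out. No paired analysis was possible because there is 1 library and no test. The 33 minus-strand reads of 15 to 18 nt and the 102 of 21 nt limit what can be said of minus-strand lengths.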

Other observations

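The 3′ ends of short reads were rich in C. The last base was C in 51.3% (50.6 to 51.9) of short reads, T in 25.3%, G in 17.9% and A in 5.54%, against 38.6% (38.3 to 38.8) for C and 11.5% for A in longer reads. With each sequence counted once C was last in 30.2% (27.9 to 32.7) of short and 28.7% (26.99 to 30.4) of longer sequences, so the difference by reads lay in abundant sequences.

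Of the 1472 short sequences, 679, or 46.1% (43.6 to 48.7), were seen in 1 read, and short reads were more concentrated on few sequences than longer reads. The 10 most abundant short sequences held 59.9% (59.3 to 60.5) of short reads, whereas the 10 most abundant longer ones held 42.8% (42.6 to 43.1) of longer reads.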
